A study of Mus musculus with 15 samples.

Results

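The 8 genes described here were grouped as chemokine and migration receptors, and were followed through 5 groups of sorted mouse thymocytes. They are the chemokine receptor genes Ccr4, Ccr7, Ccr8, Ccr9 and Cxcr4, the lipid receptor genes Gpr183 and Gpr18, and the semaphorin receptor gene Plxnd1. They were chosen with earlier results of these data known, and were found by gene symbol in the annotation of the array. All 8 had at least 1 probe set (a group of probes for 1 transcript) of their own, as did 18193 genes in all. All 8 were among the 11871 genes tested, which had a signal above the array median in at least 3 arrays.

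The study asked which genes change as CD4 T cells mature in the thymus and which of these changes depend on the kinase TAK1. Every group was from young adult mice of the C57BL/6 background, with 3 samples and 1 array per sample. PreDP cells (CD69-, TCRβ-) and PostDP cells (CD69+, TCRβ+), which are CD4 CD8 double-positive thymocytes before and after selection, came from B2m-/- mice, which lack the light chain of MHC class I, so that selection there runs through MHC class II alone. SM&M1 cells (Qa2-, CD69+) and M2 cells (Qa2+, CD69-) are the earlier and the later CD4 single-positive (CD4SP) thymocytes. They came from mice with a Rag2-GFP BAC transgene and were gated on GFP, which marks recently formed T cells, after NK1.1, CD25 and GL3 positive cells had been gated out. Tak1-deficient SM&M1 cells carried the same Qa2- CD69+ phenotype and came from Tak1f/f CD4Cre mice, in which the Cd4 promoter drives the recombinase in T lineage cells. The labels name no GFP gate for them and do not say whether NK1.1, CD25 and GL3 positive cells were gated out. The titles of the SM&M1 and M2 samples call the cells CD4SP, and those of the Tak1-deficient samples do not. Mouse line and stage therefore changed together between PostDP and SM&M1. Line, genotype and the gates named in the labels changed together between SM&M1 and Tak1-deficient SM&M1.

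Thymocytes move as they mature. Double-positive cells are made in the cortex, where the epithelium makes CXCL12, the ligand of CXCR4. Positively selected cells enter the medulla, where CCL19 and CCL21, the ligands of CCR7, and CCL17 and CCL22, the ligands of CCR4, are made, and mature cells leave through blood vessels along a gradient of sphingosine 1-phosphate. CCR8 binds CCL1, CCR9 binds CCL25 from thymic epithelium, and plexin D1 binds semaphorin 3E. GPR183 senses oxysterols made from cholesterol, and GPR18 is a related receptor encoded by the neighbouring gene.

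The level of Map3k7 went with the Tak1 genotype. Map3k7, which encodes TAK1, was at 10.42 ± 0.03 on the log2 scale in SM&M1 cells with TAK1 and at 5.39 ± 0.65 in those of Tak1f/f CD4Cre mice (SD, n = 3). B2m was at 9.67 ± 0.11 in PreDP, 10.10 ± 0.07 in PostDP and 14.36 ± 0.33 in SM&M1 (SD, n = 3). Stage and line changed together between the double-positive groups and SM&M1, so these levels of B2m cannot show the B2m-/- genotype. The mean level of Cd69 went from 9.10 in PreDP to 13.28 in PostDP, and from 12.50 in SM&M1 to 11.54 in M2, which was sorted as CD69-. Over 5 markers of double-positive cells the median log2 signal of an array was 11.84 to 14.09 in PreDP and PostDP, 6.25 to 8.73 in SM&M1 and M2, and 8.85 to 9.62 in Tak1-deficient SM&M1. Replicate 1 was the highest array of SM&M1 and of M2, at 8.73 and 8.58. Among the Tak1-deficient arrays, replicate 2 was unlike the rest: its median signal was 167.81, against 80.52 to 121.46 in the other 14 arrays, and it correlated with the others of its group at 0.875 and 0.882, where the lowest value within the other groups was 0.967. Myeloid genes were high in some arrays. Over 11 of them the summed signal was 432 to 641 in PreDP and 897 to 972 in PostDP, but 623 to 2150 in SM&M1, 797 to 2270 in M2 and 891 to 3440 in Tak1-deficient SM&M1. The top values of their groups were in replicate 1 of SM&M1 and replicate 1 of M2, and replicates 2 and 3 of the Tak1-deficient cells were at 3440 and 2720. The same 4 arrays were high for 5 granulocyte genes, with summed signals of 3650, 4070, 3090 and 5110 against 116 to 373 in the other 11 arrays. Their summed signals for 6 markers of natural killer T and innate-like T cells were 4200, 4660, 2940 and 4250. The sums for these markers were 931 to 1500 in the other arrays of all groups but PreDP, and 2860 to 4480 in PreDP. The part of these markers in the results was not tested. Precision is limited by having 3 arrays a group.

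Of the 8 genes, 4 rose and 1 fell from PreDP to PostDP, where 7.35% of all genes tested rose and 7.57% fell (limma, adjusted p under 0.05). From PostDP to SM&M1, 3 rose and 3 fell, against 7.84% and 4.14% of all genes. From SM&M1 to M2, 3 fell and 0 rose in limma (5 were lower and 0 higher at an unadjusted p under 0.05), against 0.952% of all genes rising and 1.38% falling. In Tak1-deficient SM&M1 against SM&M1, 1 was lower and 0 were higher in limma (2 and 2 at an unadjusted p under 0.05), with 0.43% of all genes higher and 1.26% lower. Against PostDP the Tak1-deficient cells had 3 of the 8 higher and 2 lower, where 7.16% and 3.72% of all genes were. Because the 8 genes were chosen with earlier results known, these shares give a scale and do not test the 8 genes as a set. The median difference of the 8 genes was 1.13, -0.38, -0.54, 0.29 and -0.04 on the log2 scale in this order, against 0.015, 0.026, -0.005, 0.055 and 0.096 over all genes tested. With each array centred on its median, higher genes were 36.1% and not 49.3% of the calls between PostDP and PreDP, and 13.4% and not 25.4% of those between Tak1-deficient SM&M1 and SM&M1. That centring shifted the median difference of all genes by -0.145 and -0.148 in these comparisons and by -0.11 in that of Tak1-deficient SM&M1 with PostDP, and it changed no call on the 8 genes.

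**Figure D1:**
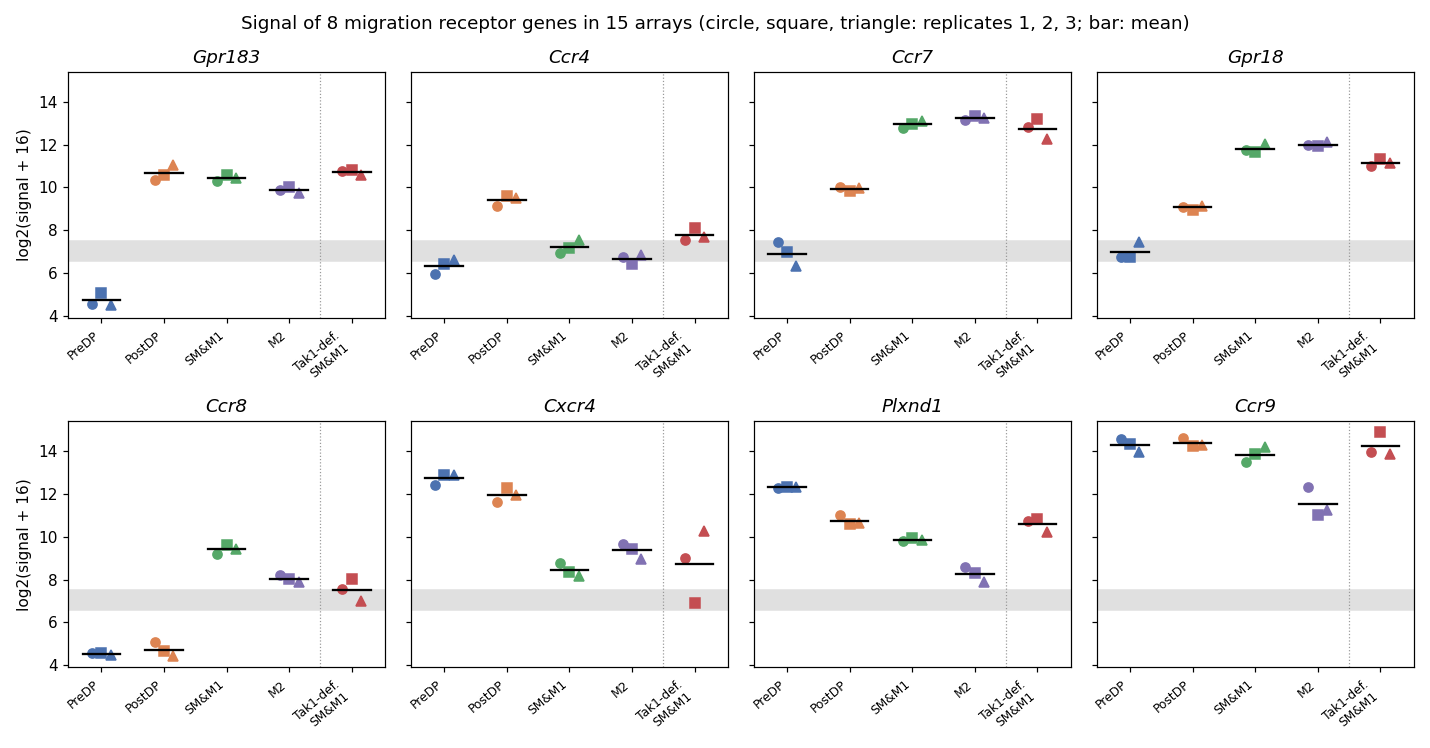
Log2(signal + 16) of each of the 8 genes in the 15 arrays, 1 panel per gene and 1 column per group; circles, squares and triangles are replicates 1, 2 and 3, bars are group means, and the grey band spans the medians of the 15 arrays (6.59 to 7.52). Gpr183 went from 4.73 in PreDP to 10.66 in PostDP, Ccr8 from 4.73 in PostDP to 9.42 in SM&M1, and Ccr9 from 13.83 in SM&M1 to 11.53 in M2.

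Levels are given as log2(signal + 16), where 16 is a constant added to keep dim probe sets from scattering, so that differences and folds are on that scale and understate the change of dim genes. A level is compared only with levels of the same probe set. In these bulk samples fewer cells of a type and less RNA per cell cannot be told apart.

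Gpr183 rose at selection, Ccr8 rose at the CD4SP stage and Cxcr4 fell between the double-positive and CD4SP stages. The promoters of these 3 genes stand for those time courses. Each is the RefSeq window in build GRCm38.p6 from 250 bases before to 50 bases after the start of the gene, printed 5′ to 3′ on the strand of the gene. Gpr183 is on the minus strand at chr14:121965144-121965443, Ccr8 on the plus strand at chr9:120091883-120092182 and Cxcr4 on the minus strand at chr1:128592250-128592549. Capitals mark matches to CACCC (the core bound by KLF factors) or GCGNGGGCG (EGR factors) on either strand. That of Gpr183 has none, and that of Ccr8 has the reverse complement of CACCC starting at -140 from the start of the gene. That of Cxcr4 has CACCC at -219 and the reverse complement of the EGR motif at -94.
Gpr183: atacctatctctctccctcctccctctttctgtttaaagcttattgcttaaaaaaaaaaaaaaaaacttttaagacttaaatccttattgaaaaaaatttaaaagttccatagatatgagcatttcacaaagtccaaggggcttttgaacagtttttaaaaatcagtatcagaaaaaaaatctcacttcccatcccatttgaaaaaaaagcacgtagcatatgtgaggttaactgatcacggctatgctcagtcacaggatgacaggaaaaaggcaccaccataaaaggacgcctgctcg
Ccr8: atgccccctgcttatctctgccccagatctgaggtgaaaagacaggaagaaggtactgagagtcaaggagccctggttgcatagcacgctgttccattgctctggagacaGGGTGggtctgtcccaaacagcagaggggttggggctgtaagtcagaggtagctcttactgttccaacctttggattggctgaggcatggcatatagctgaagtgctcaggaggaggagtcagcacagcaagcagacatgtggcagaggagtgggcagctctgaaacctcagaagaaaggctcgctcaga
Cxcr4: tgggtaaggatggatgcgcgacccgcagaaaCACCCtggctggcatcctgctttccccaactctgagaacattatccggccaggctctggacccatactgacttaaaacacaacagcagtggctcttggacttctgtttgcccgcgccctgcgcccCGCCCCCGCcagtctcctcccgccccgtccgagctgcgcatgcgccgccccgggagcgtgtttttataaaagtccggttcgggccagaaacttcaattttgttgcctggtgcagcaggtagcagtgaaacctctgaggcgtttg

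A window was found for 7 of the 8 genes. CACCC or its reverse complement was in 4 of the 7 windows (Ccr4, Ccr8, Ccr9 and Cxcr4), and in 57.5% of all 32851 windows of the same length. GCGNGGGCG was in that of Cxcr4 alone among the 7, and in 5.55% of all windows. The NF-κB consensus, present in 8.46% of all windows, and AAAGGTCA, the element of NR4A receptors, present in 1.51%, matched in no window of the 7. These matches describe letters in a short window and no binding was measured.

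The genes that were lower in M2 than in both double-positive groups are described first. Cxcr4 was high in both double-positive groups and low in all CD4SP groups. Its level was 12.39, 12.90 and 12.89 in PreDP replicates 1, 2 and 3 and 11.64, 12.25 and 11.96 in those of PostDP. It was 8.78, 8.37 and 8.15 in SM&M1 and 9.68, 9.45 and 8.96 in M2. The lowest double-positive array thus lay above the highest CD4SP array of either group, and the M2 arrays all lay above the SM&M1 arrays.

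Cxcr4 fell by 3.52 ± 0.59 from PostDP to SM&M1 (SE, n = 3 per group; limma adjusted p = 0.00166), an 11.5-fold change. The difference from PreDP to PostDP was -0.77 ± 0.59 (SE) and did not pass (limma adjusted p = 0.484). The arrays of these groups did not overlap. In a limma fit of only these groups the difference passed without (adjusted p = 0.0465) and with (adjusted p = 0.0125) replicate number as a block. The difference of M2 from SM&M1, 0.93 ± 0.59 (SE), did not pass either (limma adjusted p = 0.746) and passed in the blocked limma fit of those groups (adjusted p = 0.0287). The SE of Cxcr4 in the fit of all groups included the spread of the Tak1-deficient arrays, which was the widest of any group, with levels of 9.01, 6.93 and 10.27 and an SD of 1.69, against 0.29 to 0.37 in the other groups. Without replicate 2 of that group the fall from PostDP to SM&M1 had a limma adjusted p of 1.1e-05.

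Plxnd1, the receptor of semaphorin 3E, fell in steps. Its level was 12.29, 12.30 and 12.33 in PreDP, 10.99, 10.61 and 10.64 in PostDP, 9.81, 9.92 and 9.83 in SM&M1, and 8.60, 8.31 and 7.87 in M2. No array of one stage overlapped the next. The changes were -1.56 ± 0.20, -0.89 ± 0.20 and -1.60 ± 0.20 (SE, n = 3 per group; limma adjusted p = 0.000154, 0.0109 and 0.00109). The smallest of these, from PostDP to SM&M1, lost its call without PostDP replicate 1 (-0.77, limma adjusted p = 0.0531). Each of the 3 steps of maturation thus passed for Plxnd1 with all arrays in the fit, and for no other of the 8 genes.

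Ccr9, the receptor of CCL25, was lower in M2 than in any other group. By the probe set of highest mean its level was 14.54, 14.31 and 13.93 in PreDP, 14.61, 14.25 and 14.26 in PostDP, 13.49, 13.84 and 14.17 in SM&M1, and 12.33, 11.00 and 11.26 in M2. The PreDP and PostDP arrays overlapped, and all M2 arrays lay below those of the other groups. The change from SM&M1 to M2 was -2.30 ± 0.35 (SE, n = 3 per group; limma adjusted p = 0.00333), a 4.94-fold fall, and in the blocked limma fit of those groups alone it missed the threshold (adjusted p = 0.0552). The changes at the earlier steps, 0.12 ± 0.35 and -0.54 ± 0.35 (SE), did not pass (limma adjusted p = 0.898 and 0.389).

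The 5 probe sets of Ccr9 did not give the same course. All 5 were lower in M2 than in SM&M1, by -1.62 to -3.54. Between PostDP and SM&M1 the 4 others had differences of -1.15, -2.03, -2.74 and -1.90, where the one of highest mean had -0.54. With the mean of all 5 the fall from PostDP to SM&M1 passed (-1.67, limma adjusted p = 0.00186). The probe set of highest mean bears the suffix x_at, which on these arrays marks probes that can bind other transcripts. Ccr9 transcripts were thus lower at the SM&M1 stage by 4 probe sets of 5 at more than 2-fold, and lower again in M2 by all of them.

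**Figure D2:**
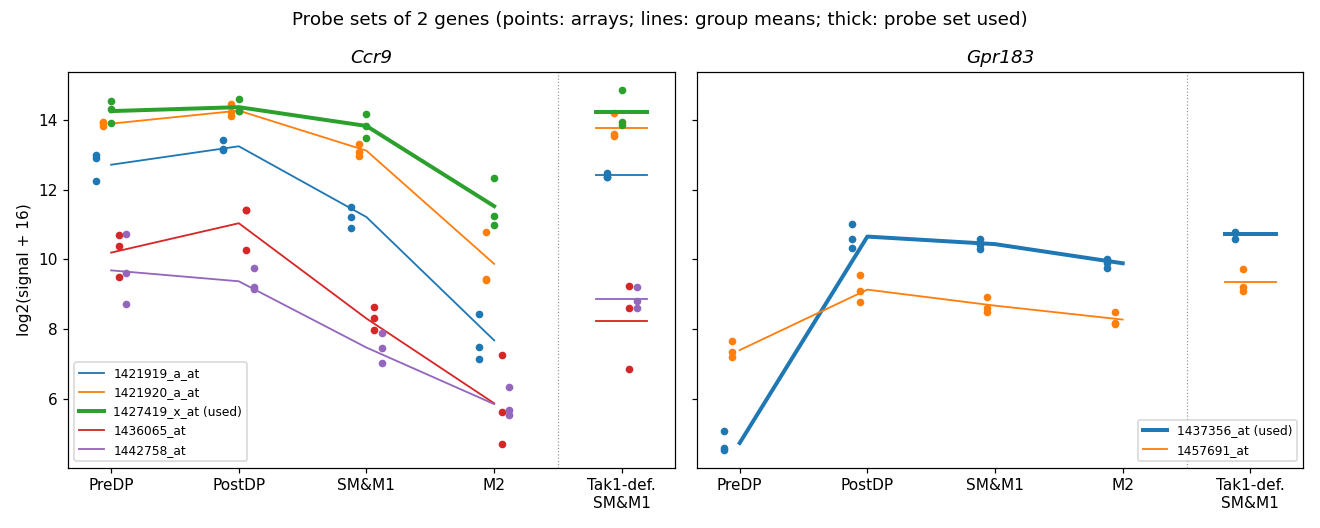
Log2(signal + 16) of the 5 probe sets of Ccr9 (left) and the 2 of Gpr183 (right) in the 5 groups; points are arrays, lines join group means of the 4 stages, short lines mark the Tak1-deficient mean, and the thick line is the probe set of highest mean, which was used. Every Ccr9 probe set ended lowest in M2, with group means from 5.85 to 11.53, and both Gpr183 probe sets were lowest in PreDP.

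The receptors of medullary ligands came up in a different order. Ccr7, which guides selected cells to the medulla, rose at both steps up to SM&M1. Its level was 7.48, 6.97 and 6.32 in PreDP, 10.02, 9.85 and 9.97 in PostDP, 12.78, 12.96 and 13.12 in SM&M1, and 13.17, 13.32 and 13.24 in M2. The 4 stages did not overlap, though the highest SM&M1 array (13.12) and the lowest M2 array (13.17) nearly met. Ccr7 rose by 3.02 ± 0.27 from PreDP to PostDP and by 3.01 ± 0.27 from PostDP to SM&M1 (SE, n = 3 per group; limma adjusted p = 6.18e-06 and 1.22e-05), which is 8.14-fold and 8.04-fold. The difference of M2 from SM&M1 was 0.29 ± 0.27 (SE) and did not pass (limma adjusted p = 0.929).

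Ccr4, the receptor of CCL17 and CCL22, was high in PostDP only. Its level was 5.97, 6.45 and 6.64 in PreDP and 9.13, 9.62 and 9.50 in PostDP. It was then 6.96, 7.17 and 7.53 in SM&M1 and 6.76, 6.42 and 6.86 in M2. No array of another group reached the lowest PostDP array, and the M2 and PreDP arrays overlapped. Ccr4 rose by 3.06 ± 0.23 (SE, n = 3 per group; limma adjusted p = 1.31e-06) on the way into PostDP and changed by -2.20 ± 0.23 on the way out (SE; limma adjusted p = 4.5e-05). In M2 it differed from SM&M1 by -0.53 ± 0.23 (SE), which did not pass (limma adjusted p = 0.425).

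Ccr8, the receptor of CCL1, appeared a step later. Its level was 4.57, 4.58 and 4.50 in PreDP and 5.09, 4.66 and 4.43 in PostDP, below the median of the array in all 6. It was 9.19, 9.62 and 9.44 in SM&M1 and 8.22, 8.04 and 7.88 in M2. The SM&M1 arrays were the highest, and the M2 arrays lay between them and the double-positive arrays. Ccr8 rose by 4.69 ± 0.24 from PostDP to SM&M1 (SE, n = 3 per group; limma adjusted p = 1.22e-07), and changed by -1.37 ± 0.24 from SM&M1 to M2 (SE; limma adjusted p = 0.00906). The PostDP signals, 5.55 to 18.0, are not shown to be above background either, and with a constant of 1 the rise was 5.945 (limma adjusted p = 7.27e-07). The call from SM&M1 to M2 was lost without M2 replicate 3 (-1.29, limma adjusted p = 0.0539) or SM&M1 replicate 3 (-1.36, limma adjusted p = 0.0511), and with a constant of 1 in place of 16 (-1.43, limma adjusted p = 0.0517).

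Regulatory T cells also express CCR4 and CCR8, so their markers were read beside these genes. Foxp3, the factor that defines them, had a level of 6.26 ± 0.44 in PostDP, 6.33 ± 0.22 in SM&M1 and 7.16 ± 0.23 in M2, the highest of the 5 groups (SD, n = 3), and Il2ra, which encodes CD25, a marker gated out in the latter sort, was at 6.63 ± 0.39 in PostDP and 7.18 ± 0.26 in SM&M1 (SD, n = 3). The other 4 markers differed more between these groups: Tnfrsf18 averaged 10.31 in PostDP and 12.45 in SM&M1, Izumo1r 10.13 and 11.97, Gpr83 8.61 and 10.77, and Ikzf2 13.21 and 11.55. The median level of the 6 in an array was 9.27 to 9.43 in PostDP and 11.02 to 11.35 in SM&M1. Over all 6, of which 4 or 5 exceeded the array median in each PostDP array and 5 in each SM&M1 array, the summed signal was 11400 to 12900 in PostDP, 11900 to 17900 in SM&M1, 8070 to 9490 in M2 and 3510 to 4040 in PreDP. Their part in the changes of Ccr4 and Ccr8 was not tested.

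The lipid receptor genes both rose at selection. Gpr183 had a level of 4.58, 5.07 and 4.54 in PreDP, below the array median in each, and of 10.34, 10.60 and 11.03 in PostDP. It was 10.30, 10.60 and 10.42 in SM&M1 and 9.90, 10.01 and 9.76 in M2. The PostDP and SM&M1 arrays overlapped, and the M2 arrays lay just below both. Gpr183 rose by 5.93 ± 0.20 from PreDP to PostDP (SE, n = 3 per group; limma adjusted p = 9.71e-10). The PreDP signals, 7.26 to 17.5 before the constant was added, are not shown to be above background, so the size depends on the constant, and with 1 in its place it was 7.17 (limma adjusted p = 3.75e-09). Its other probe set was at 7.20, 7.33 and 7.66 in PreDP, above the array median in each. That probe set rose less, from a mean of 7.40 to 9.13, so that with the mean of both the rise was 3.83 (limma adjusted p = 1.03e-08). The later differences, -0.22 ± 0.20 and -0.55 ± 0.20 (SE), did not pass (limma adjusted p = 0.581 and 0.248).

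Gpr18 lies on chromosome 14 with 0 protein-coding genes between it and Gpr183 in RefSeq, and it went on rising where Gpr183 did not. Its level was 6.78, 6.74 and 7.45 in PreDP, 9.09, 8.97 and 9.14 in PostDP, 11.74, 11.66 and 12.01 in SM&M1, and 11.98, 11.92 and 12.11 in M2. The first 3 stages did not overlap, and SM&M1 and M2 did. Gpr18 rose by 2.08 ± 0.19 from PreDP to PostDP and by 2.74 ± 0.19 from PostDP to SM&M1 (SE, n = 3 per group; limma adjusted p = 7.16e-06 and 1.66e-06). The difference of M2 from SM&M1 was 0.20 ± 0.19 (SE), with a limma adjusted p of 0.934.

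**Figure D3:**
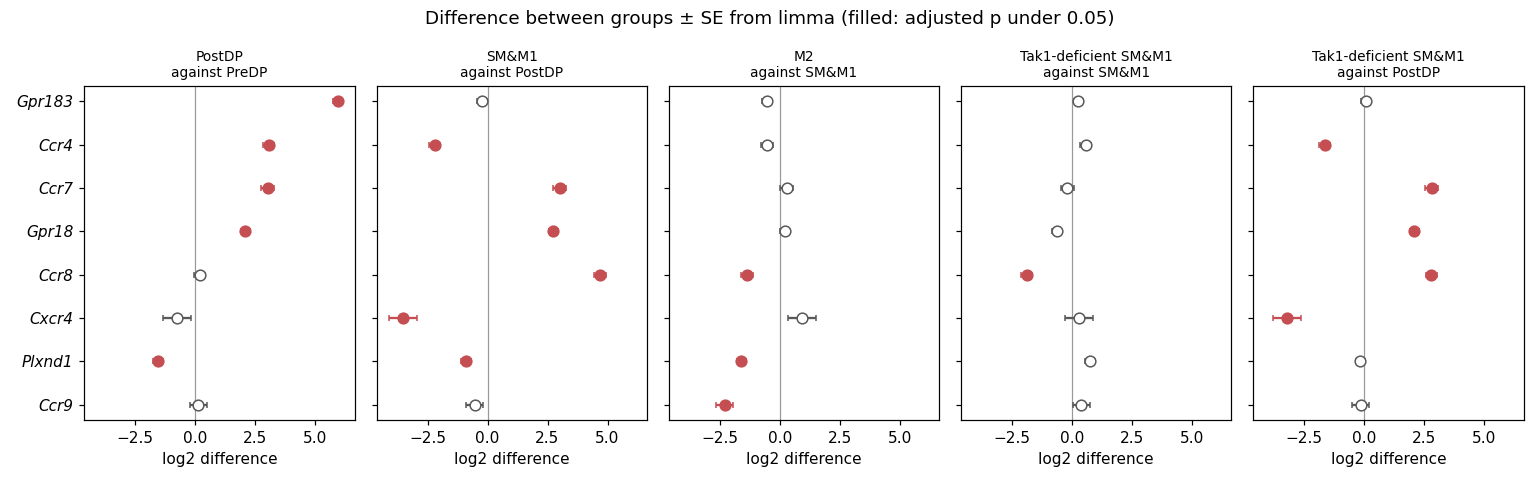
Log2 difference between groups for the 8 genes (rows) in the 5 comparisons (panels), with bars for the SE of the limma fit of all 15 arrays; filled points had an adjusted p under 0.05. Ccr8, at -1.89, is the sole filled point where Tak1-deficient SM&M1 cells are compared with SM&M1 cells, and Plxnd1 is filled in each of the 3 stage comparisons.

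Tak1-deficient SM&M1 cells differed from SM&M1 cells in Ccr8. Its level was 7.55, 8.02 and 7.01 in the Tak1-deficient arrays, all below the 9.19, 9.62 and 9.44 of SM&M1 and all above the double-positive arrays. The difference was -1.89 ± 0.24 (SE, n = 3 per group; limma adjusted p = 0.00154), or 3.71-fold lower. Without the outlying replicate 2 it was -2.14 (limma adjusted p = 0.000326). Of the Tak1-deficient arrays, replicates 2 and 3 had high granulocyte genes and Ccr8 at 8.02 and 7.01, and replicate 1, without them, had 7.55. SM&M1 replicate 1, with high granulocyte genes, had Ccr8 at 9.19, and replicates 2 and 3 had 9.62 and 9.44. In a limma fit of only these groups, where 5 genes passed of all tested, the call was lost (adjusted p = 0.16). The summed signal of the 6 regulatory T cell markers was 10700 to 12300 in the Tak1-deficient arrays. Their part and that of the granulocyte genes in the difference of Ccr8 were not tested. Line, genotype and the gates named in the labels changed together in this comparison.

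Ccr7, Ccr4, Gpr18, Gpr183 and Cxcr4 differed less. Ccr7 was at 12.82, 13.19 and 12.25 in the Tak1-deficient arrays, which overlapped those of SM&M1, with a difference of -0.20 ± 0.27 (SE; limma adjusted p = 0.709). Ccr4 was at 7.56, 8.12 and 7.68, above the SM&M1 arrays by 0.57 ± 0.23 (SE; limma adjusted p = 0.23). Neither passed. Gpr18, at 11.01, 11.32 and 11.16, lay below every SM&M1 array, by -0.64 ± 0.19 (SE; limma adjusted p = 0.114), and Gpr183, at 10.75, 10.80 and 10.60, differed by 0.27 ± 0.20 (SE; limma adjusted p = 0.463). Cxcr4, with the spread given above, differed by 0.30 ± 0.59 (SE; limma adjusted p = 0.8). A p above the threshold does not show that these levels were equal.

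Plxnd1 was nearer in the Tak1-deficient cells to its PostDP level, and for Ccr9 this depended on the probe set. Plxnd1 was at 10.75, 10.82 and 10.24, above every SM&M1 array and overlapping PostDP. It differed from SM&M1 by 0.75 ± 0.20 (SE; limma adjusted p = 0.0882) and from PostDP by -0.15 ± 0.20 (SE; limma adjusted p = 0.665). Without Tak1-deficient replicate 3 the former was 0.93 and passed (limma adjusted p = 0.0441). Ccr9 was at 13.96, 14.87 and 13.87, and differed from SM&M1 by 0.40 ± 0.35 (SE; limma adjusted p = 0.543) and from PostDP by -0.14 ± 0.35 (SE; limma adjusted p = 0.817). With the mean of its 5 probe sets the latter was -0.96 and passed (limma adjusted p = 0.0483). Among its 4 other probe sets the difference from SM&M1 was 1.19, 0.66, -0.07 and 1.40, and that from PostDP was -0.84, -0.49, -2.80 and -0.50. The group means of all 5 double-positive markers were also higher in these arrays than in SM&M1. Cd8a was at 9.63 ± 0.51 against 7.79 ± 0.21 (SD, n = 3). Rag1, Rag2 and Ptcra overlapped between these groups, with SM&M1 replicate 1 at 10.55, 7.76 and 8.73. The summed signal of the 5 was 3710 to 6190 against 3810, 1610 and 1640 in SM&M1 replicates 1, 2 and 3. In PostDP it was 17500 to 27500. The part of these markers in the levels of Plxnd1 and Ccr9 was not tested.

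The comparison of Tak1-deficient cells with PostDP shares its arrays with those above, and 5 of the 8 genes passed in it. Ccr7 was higher by 2.81 ± 0.27, Ccr8 by 2.80 ± 0.24 and Gpr18 by 2.10 ± 0.19 (SE, n = 3 per group; limma adjusted p = 4.35e-05, 1.98e-05 and 2.97e-05). Side by side with these, the SM&M1 cells differed from PostDP by 3.01, 4.69 and 2.74. Ccr4 was lower by -1.63 ± 0.23 and Cxcr4 by -3.22 ± 0.59 (SE; limma adjusted p = 0.000875 and 0.00433). Without the outlying replicate 2 the difference of Cxcr4 was -2.31 (limma adjusted p = 0.00112), and in a fit of only these groups it did not pass (limma adjusted p = 0.12).

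Related genes were read in 6 lists. Of all genes tested, 7.35% rose and 7.57% fell from PreDP to PostDP, and 7.84% and 4.14% from PostDP to SM&M1. From SM&M1 to M2 the shares were 0.952% and 1.38%. For Tak1-deficient SM&M1, 0.43% were higher and 1.26% lower against SM&M1, and 7.16% and 3.72% against PostDP. These shares give a scale for the counts and test no list. Where they are small, a short list without calls says little. Of 19 other chemokine receptor genes 17 had a probe set of their own and 9 were tested. Ccr10, a receptor of skin-homing cells, rose by 1.99 ± 0.48 from PreDP to PostDP (SE; limma adjusted p = 0.0115), a call lost without PostDP replicate 3 or without PreDP replicate 1. None of the 9 passed from PostDP to SM&M1 or from SM&M1 to M2 in limma, nor had any an unadjusted p under 0.05. Ackr4, an atypical receptor that takes up CCL19 and CCL21, was lower in Tak1-deficient SM&M1 by -0.86 ± 0.19 against SM&M1 and by -0.64 ± 0.19 against PostDP (SE; limma adjusted p = 0.0397 and 0.0475). These calls were lost in 11 and 10 of 13 alternatives, among them those without the outlying array. The list medians were 0.23, 0.15, 0.23, -0.10 and 0.06 in the 5 comparisons.

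Among the lipid and nucleotide receptors, 11 of 19 were tested, and 3 rose and 1 fell from PreDP to PostDP. Gpr174, a receptor of lysophosphatidylserine, rose by 3.89 ± 0.63 and Gpr65, a proton-sensing receptor, by 3.32 ± 0.35 (SE; limma adjusted p = 0.000882 and 2.9e-05). From PostDP to SM&M1, 2 rose and 1 fell, led by S1pr1, the receptor for thymic exit, at 2.16 ± 0.47 and Lpar6, a lysophosphatidic acid receptor, at -1.66 ± 0.18 (SE; limma adjusted p = 0.00833 and 4.62e-05). From SM&M1 to M2, S1pr1 rose by 2.10 ± 0.47 and S1pr4 by 1.65 ± 0.15 (SE; limma adjusted p = 0.0319 and 0.000106). The call on S1pr1 at this last step was lost in 12 of 17 alternatives, among them those without any 1 of the 6 arrays and that with replicate number as a block in the fit of all arrays (limma adjusted p = 0.057). In Tak1-deficient SM&M1 against SM&M1, 3 of the 11 were lower, with S1pr1 at -2.53 ± 0.47 and S1pr4 at -1.08 ± 0.15 (SE; limma adjusted p = 0.0182 and 0.00287), calls lost in a fit of only these groups. That on S1pr4 was lost with arrays centred on their medians too, and that on S1pr1 was lost without any 1 of the SM&M1 arrays. Against PostDP the Tak1-deficient cells had 3 lower and 0 higher (in limma 0 were higher at an unadjusted p under 0.05 too), led by P2ry10, a lysophosphatidylserine receptor, at -2.17 ± 0.50 and Lpar6 at -1.48 ± 0.18 (SE; limma adjusted p = 0.0146 and 0.000246). The call on P2ry10 was lost in 4 of 15 alternatives, among them those without PostDP replicate 2 or PostDP replicate 3. The list medians were 0.70, 0.14, 0.10, -0.74 and -0.47.

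Of 10 other plexins and neuropilins 9 were tested. From PreDP to PostDP, 2 rose and 1 fell. Nrp1, a co-receptor for class 3 semaphorins, changed by -2.08 ± 0.42 and Plxnb1, a receptor of semaphorin 4D, by 0.94 ± 0.18 (SE; limma adjusted p = 0.00411 and 0.00294), the latter lost with each array centred on its median. In the other 4 comparisons none passed in limma. At an unadjusted p under 0.05, 1 was higher in Tak1-deficient SM&M1 against SM&M1, 1 was higher and 1 lower against PostDP, and none in the others. The list medians were 0.42, -0.09, 0.04, 0.28 and 0.00.

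Of 13 genes for ligands of the 8 receptors or enzymes that make them, 11 had a probe set of their own and 6 were tested. Sema4a, a semaphorin that can bind plexin D1, rose by 4.67 ± 0.28 from PreDP to PostDP (SE; limma adjusted p = 1.33e-07), from a level of 5.74 to 10.41. Ccl1, the ligand of CCR8, was higher in Tak1-deficient SM&M1 than in PostDP by 1.28 ± 0.38 (SE; limma adjusted p = 0.0455), a call lost in 10 of 14 alternatives, among them those without any 1 of the 6 arrays. None passed in the other 3 comparisons in limma, where 2 were higher at an unadjusted p under 0.05 in SM&M1 against PostDP and 1 in Tak1-deficient SM&M1 against SM&M1. The list medians were -0.03, 0.17, 0.20, 0.36 and 0.58.

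Of 20 tested genes that carry or end the signal of chemokine receptors, 7 rose from PreDP to PostDP and 13 did not pass. At that step 7.35% of all genes tested rose. Rgs3 and Rgs10, regulators that speed the end of G protein signals, rose by 2.39 ± 0.30 and 1.61 ± 0.30 (SE; limma adjusted p = 0.000113 and 0.00216). From PostDP to SM&M1, 3 rose and 2 fell. Rgs1, a regulator of the same family, rose by 2.31 ± 0.40 and Gng2, a G protein gamma subunit, by 1.13 ± 0.21 (SE; limma adjusted p = 0.00213 and 0.00371). Rgs1 was lower in Tak1-deficient SM&M1 than in SM&M1 by -1.89 ± 0.40 (SE; limma adjusted p = 0.0321), the only call on this list there, lost without any 1 of the Tak1-deficient arrays. It was also lost without SM&M1 replicate 1 or without SM&M1 replicate 2, and in 9 of 15 alternatives in all. Against PostDP the Tak1-deficient cells had 3 of the 20 higher and 2 lower, with Gng2 at 1.44 ± 0.21 and Rgs3 at 1.26 ± 0.30 (SE; limma adjusted p = 0.00113 and 0.0172), the latter lost in 5 of 15 alternatives, among them those without PostDP replicate 2 or PostDP replicate 3. In M2 against SM&M1 none of the 20 passed in limma, while 1 was higher and 4 were lower at an unadjusted p under 0.05. The list medians were 0.43, 0.05, -0.04, -0.10 and -0.18.

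Of 22 tested genes of the machinery of migration, 4 rose from PreDP to PostDP, led by Cytip, a regulator of integrin adhesion, at 1.17 ± 0.27 and the small GTPase gene Rap1a at 0.85 ± 0.18 (SE; limma adjusted p = 0.00889 and 0.00606), the latter lost with each array centred on its median. None passed in limma from PostDP to SM&M1 or in Tak1-deficient SM&M1 against SM&M1, where at an unadjusted p under 0.05 there were 0 higher and 1 lower, and 4 higher and 1 lower. From SM&M1 to M2, 1 rose and 2 fell, with Itgb1, the integrin beta 1 chain, at -1.16 ± 0.26 and Tiam1, an activator of Rac, at -0.94 ± 0.19 (SE; limma adjusted p = 0.0326 and 0.0193). These 2 calls were lost without any 1 of the SM&M1 arrays or without M2 replicate 3, that on Itgb1 also without M2 replicate 1 and that on Tiam1 without M2 replicate 2. In all, that on Itgb1 was lost in 8 of 16 alternatives and that on Tiam1 in 8 of 17, with Tiam1 at -0.54 with the mean of its probe sets (limma adjusted p = 0.597). Against PostDP, Tiam1 was higher in the Tak1-deficient cells by 0.79 ± 0.19 and Rhoh, a GTPase of blood cells, lower by -0.73 ± 0.21 (SE; limma adjusted p = 0.0183 and 0.0387), the latter lost without any 1 of the 6 arrays and the former without PostDP replicate 1 or PostDP replicate 2. In all, that on Tiam1 was lost in 6 and that on Rhoh in 10 of 15 alternatives. The list medians were 0.12, -0.14, 0.05, 0.05 and -0.02.

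**Figure D4:**
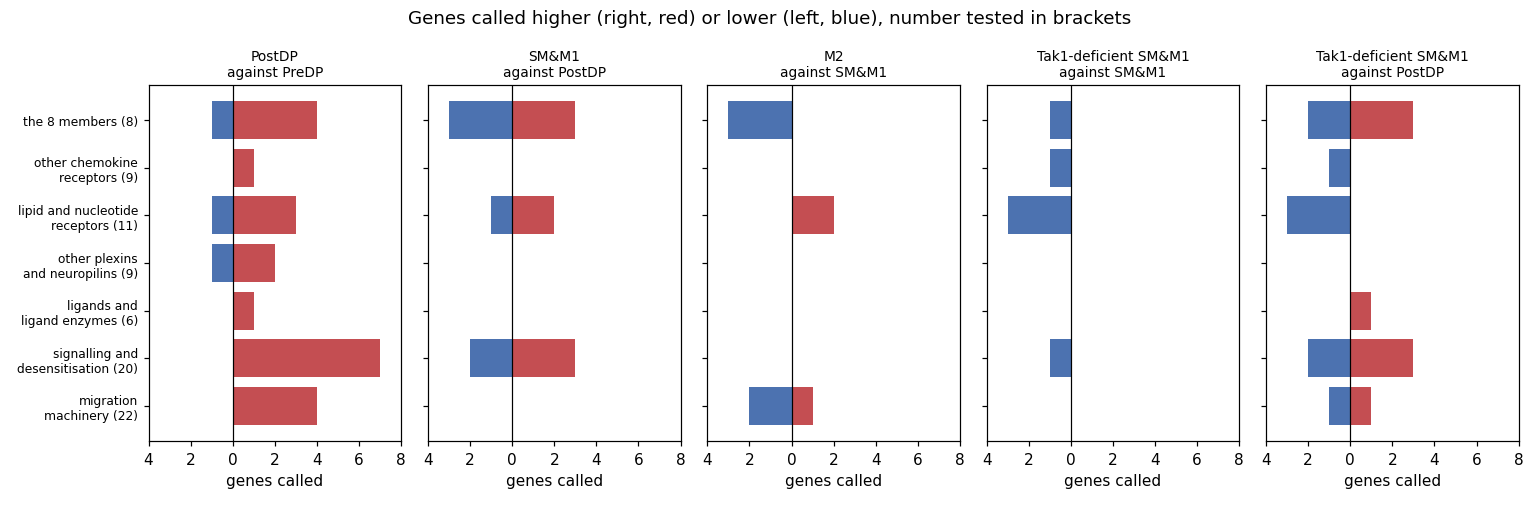
Number of genes called higher (right, red) or lower (left, blue) at an adjusted p under 0.05 in limma, for the 8 genes and 6 lists of related genes (rows, number tested in brackets), in the 5 comparisons (panels). Signalling genes had 7 calls upward in PostDP against PreDP, and the lipid and nucleotide receptors had 3 downward in Tak1-deficient SM&M1 against SM&M1. Of all genes tested, 7.35% were called higher in the former comparison and 1.26% lower in the latter.

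Genes with courses like those of the 8 were named by Pearson's r over the 15 arrays, as a description. The closest to Ccr7 were Nlrc5 (0.989), Mboat1 (0.989) and Tesc (0.988), and the closest to Gpr18 were Nlrc5 (0.988), Samhd1 (0.987) and Ccnd2 (0.984). Ccr7 and Gpr18 correlated with each other at 0.98. For Ccr8 they were Tnfrsf4 (0.981), a TNF receptor family gene, Kctd14 (0.974) and Pyroxd2 (0.964). For Gpr183 they were Tes (0.992), Ephx1 (0.992) and Ndrg1 (0.989), and for Ccr4 Arap2 (0.972), Lrp10 (0.944) and Pfkp (0.943). Dennd4c (0.989), Setd7 (0.965) and Ikzf5 (0.961) were closest to Cxcr4, Lrrc42 (0.965), Palm (0.962) and Rai1 (0.958) to Plxnd1, and Smo (0.954), Spats2 (0.948) and Camk1d (0.938) to Ccr9. Between Gpr183 and its neighbour Gpr18 the value was 0.783. The 15 arrays fall into 5 groups, and these values mostly reflect the group means.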

How the data were processed

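RNA of sorted thymocytes was amplified in 1 round, labelled with biotin and hybridised to Affymetrix mouse arrays, per the labels' protocols and the array annotation. The authors deposited linear intensity values for 45101 probe sets in 15 arrays. The algorithm is not given in the sources used here; with 2% of probe sets trimmed from either end, the mean was 500.0 in every array. Probe sets were named by the platform annotation, with current symbols through Entrez numbers (RefSeq, GRCm38.p6; 34741 of 34945 probe sets with 1 gene). Of the others, 932 had several genes, 9160 no gene here and 64 were controls. Each gene was represented by its probe set of highest mean log2(intensity + 16). Genes above the 50th percentile of the array in at least 3 arrays were tested.

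All 5 comparisons were fitted with limma (version 3.58.1, R 4.3.3) over 15 arrays with 1 mean per group, 10 residual degrees of freedom and no replicate block, and adjusted by Benjamini-Hochberg over 11871 genes, with calls at an adjusted p under 0.05. Whether replicates came from separate animals is not in the labels, which call them biological, and the p-values cover only the spread among them, part of which may be technical. The scripts were tested on simulated data. Deviations of same-numbered samples from their group means correlated at 0.339, 0.275 and 0.411 between PreDP and PostDP and at 0.553, 0.436 and 0.326 between SM&M1 and M2 (replicates 1, 2 and 3). Samples of the same number may thus be linked in these comparisons, but the labels do not say what the numbers mark. The replicate block was therefore fitted as an alternative and not in the main fit. The members and lists were chosen with earlier results of these data known. Besides the members, up to 2 genes per list and comparison with the largest differences among those called are named, and for each member the 3 genes of highest r, leaving out predicted genes and antigen receptor segments. Alternatives were the replicate block, a fit of only the groups compared, both together, a filter raised to the 75th percentile or dropped, quantile normalization, centring on array medians, the mean of all probe sets, a constant of 1 and leaving out arrays singly. Leaving out replicate 1 of SM&M1 and M2 together was added after seeing the data.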

Additional observations from a re-analysis of the deposited data

How the results depend on the processing

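The 40 differences of the 8 genes were computed under 632 alternatives in all. Of these, 603 kept direction and side of the threshold, 13 lost a call, 6 gained one and 10 had the other sign. All 10 concerned differences that passed in neither fit. With arrays centred on their medians Ccr9 was at -0.029 in PostDP against PreDP and Gpr183 at -0.052 in Tak1-deficient SM&M1 against PostDP. With single arrays left out, PostDP against PreDP ranged from -0.005 to 0.324 for Ccr8 and from -0.05 to 0.255 for Ccr9. Tak1-deficient SM&M1 against SM&M1 ranged from -0.421 to 0.051 for Ccr7 and from -0.462 to 1.21 for Cxcr4. Tak1-deficient SM&M1 against PostDP ranged from -0.456 to 0.043 for Ccr9, from -0.101 to 0.246 for Gpr183 and from -0.254 to 0.033 for Plxnd1. The number of the 8 genes called between Tak1-deficient SM&M1 and SM&M1 was 1 in the fit of all arrays, 0 in a fit of only these groups, 0 in that fit with a replicate block, and 1 to 2 with single arrays left out. Between Tak1-deficient SM&M1 and PostDP it was 5, and 0 with a replicate block in a fit of both groups alone, where no gene of 11871 passed. In these 2 comparisons and in SM&M1 against PostDP the groups came from different mouse lines. Deviations of same-numbered samples correlated there at -0.244 to 0.124, and the labels do not say what the numbers mark. In PostDP against PreDP and in M2 against SM&M1, a replicate block in the fit of all arrays changed no call on the 8 genes. In fits of only the groups compared the block changed none beyond Cxcr4 and Ccr9, as given with their values. Among the other genes named in these comparisons the block over all arrays ended the call on S1pr1 alone. With replicate 1 of SM&M1 and of M2 both left out, the 3 falls of M2 against SM&M1 were still called, with Ccr9 at -2.88, Ccr8 at -1.57 and Plxnd1 at -1.79. Over all genes, 1772 were called between PostDP and PreDP, and 1171 to 2992 under the alternatives. These numbers were 1423, and 825 to 2726, between SM&M1 and PostDP, and 277, and 82 to 672, between M2 and SM&M1. They were 201, and 0 to 347, between Tak1-deficient SM&M1 and SM&M1, and 1292, and 0 to 1776, between Tak1-deficient SM&M1 and PostDP. The highest number in each came without Tak1-deficient replicate 2. The call lost on Ccr8 between Tak1-deficient SM&M1 and SM&M1 came with the same difference, and the cause was not tested. By the probe sets used, Ccr8 and Gpr183 lay below the array median in their dimmest groups. There the signal over background is not known.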
